A study of Arabidopsis thaliana with 12 samples.

Results

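The 35 genes described here encode enzymes and partners of carbon fixation and of photorespiration in Arabidopsis thaliana. They were chosen by a list of loci whose rule uses no measured value, though earlier results of these data were known when it was made. They fall into 3 groups. Rubisco is represented by 5 genes, 4 for its small subunit and 1 for Rubisco activase, the other steps of the Calvin cycle by 14 genes, and photorespiration by 16. All 35 had a row among the 20233 genes of the deposited expression table, and all 35 passed the filter on low values, a mean of at least 1 FPKM (fragments scaled to transcript length and library size) over the 12 libraries. RNA came from seedlings that were 2 to 3 weeks old, with leaf given as the tissue, collected 6 h after vacuum infiltration. The 4 groups of 3 libraries were mock-treated seedlings, seedlings given 10 µM valinomycin, seedlings given Pseudomonas syringae pv. tomato DC3000, and seedlings given both. Valinomycin is a potassium ionophore made by Streptomyces bacteria, and DC3000 is a bacterial pathogen of tomato and Arabidopsis. Not given in the sources used here are the plant accession, the bacterial dose, the light conditions, the time of day and the composition of the mock treatment. Since nothing says that replicates came from separate plants, every p-value covers the spread between libraries alone, which may be technical.

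In the chloroplast stroma, Rubisco joins carbon dioxide to ribulose-1,5-bisphosphate, and the Calvin cycle reduces the product to triose phosphate and rebuilds the acceptor. Rubisco also reacts with oxygen and then forms 2-phosphoglycolate, an inhibitory product that photorespiration recycles through the chloroplast, the peroxisome and the mitochondrion. The route releases carbon dioxide and ammonia at the glycine decarboxylase step, while its glycolate oxidase step makes hydrogen peroxide, which has a known part in the leaf's response to pathogens. Both sets of genes are known for high levels in green leaves and for control by light, sugar and the circadian clock.

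No unit is stated for the values, and their form is that of FPKM, so the sequencing depth is unknown and no counting interval can be given. Their totals lay between 1057472 and 1350272 per library. Chloroplast genes took 40.9 to 42.7% of it in mock libraries, 34.5 to 40.3% with valinomycin, 34.5 to 39.8% with DC3000 and 31.1 to 37.6% with both, and the part of this difference in the results was tested only by scaling nuclear genes apart. The lowest correlation of log2 values between replicates of a group was 0.962. These are bulk samples, in which fewer cells of a type and less RNA per cell cannot be told apart. As a check of the tissue label, the 17 genes of the light-harvesting proteins summed to 50579.5 to 57482 FPKM in the mock libraries. Of the 5 root markers, only PYK10 had a row, with 129 to 199 FPKM in mock libraries, 153 to 205 FPKM with valinomycin, 206 to 312 FPKM with DC3000 and 165 to 211 FPKM with both treatments, and the other root markers were not analysed here. PYK10 was called higher than mock with DC3000 (log2 change 0.51). All 4 guard cell markers had a row, and their sums were 19.4 to 29.4, 27.2 to 29.3, 26.2 to 34.8 and 24.7 to 26.6 FPKM in the same order. Against mock, 1 guard cell marker was called higher with valinomycin and 1 with both treatments, and none lower. The 5 markers of phloem and xylem summed to 69.8 to 83.4, 78.7 to 93.4, 69.7 to 82.3 and 62.96 to 74.7 FPKM. These sums hide opposite moves, since 1 of the 5 was called lower and 1 higher with DC3000, and likewise with both treatments. The shares of all genes called are given below. Of the 4 markers of meristem and epidermis, 3 had a row, and these summed to 21.8 to 34.5, 29.4 to 33.6, 17.2 to 19.2 and 23.6 to 26.3 FPKM. The DC3000 range lay below the other 3 through ATML1, at 9.95 to 11.1 FPKM against 15.6 to 27.7 FPKM in mock libraries, while STM was called higher with DC3000, though not under median-of-ratios scaling, and GL2 was not called. The part of these cell types in the results below was not tested.

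The 250 bases before each annotated gene start were searched on both strands for 4 short motifs, because many of these genes moved together. The G-box, CACGTG, is a core sequence bound by light-signalling factors such as HY5, and the I-box, GATAAG, is a known element of Rubisco small subunit promoters. The evening element, AAAATATCT, and the CCA1 binding site, AAAAATCT, are bound by the clock factors CCA1 and LHY. A G-box was found before 5 of the 35 genes, or 14.3%, against 7.17% of the 20053 nuclear genes of the table with a matching locus in RefSeq. An I-box was found before 5 of the 35, again 14.3%, against 12.5% of all. No evening element was found before any of the 35, against 2.43% of all, and a CCA1 binding site stood before only GOX1, or 2.86% of the 35, against 6.61% of all. Each window ends at the outermost annotated start of its gene, so a motif beyond that start was not counted. The RBCS1B window ends within a stretch that resembles the RBCS2B sequence at its first I-box. A gene without a match may therefore still carry the motif outside its window. A match describes the letters in this window and is not evidence of binding.

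The 5 promoters with a G-box are shown because they cover both pathways, from a small subunit gene to glycine decarboxylase. They are read 5′ to 3′ toward the gene, from RefSeq's TAIR10.1 assembly, with each G-box and I-box in capitals, and none of these windows overlaps another annotated gene. The windows are RBCS2B at chr5:15382072-15382321 on the minus strand, HCEF1 at chr3:20016587-20016836 on the plus strand, PRK at chr1:11531949-11532198 on the plus strand, GGT1 at chr1:8272022-8272271 on the minus strand and GLDP1 at chr4:15931423-15931672 on the minus strand.
RBCS2B: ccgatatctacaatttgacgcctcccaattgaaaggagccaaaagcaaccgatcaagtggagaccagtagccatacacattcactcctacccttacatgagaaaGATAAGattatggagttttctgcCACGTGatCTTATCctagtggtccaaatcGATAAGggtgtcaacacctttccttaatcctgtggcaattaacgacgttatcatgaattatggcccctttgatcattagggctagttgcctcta
HCEF1: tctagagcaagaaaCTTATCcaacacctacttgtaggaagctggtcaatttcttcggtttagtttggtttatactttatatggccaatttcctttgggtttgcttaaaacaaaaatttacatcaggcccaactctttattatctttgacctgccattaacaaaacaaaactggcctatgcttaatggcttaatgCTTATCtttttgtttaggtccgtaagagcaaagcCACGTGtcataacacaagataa
PRK: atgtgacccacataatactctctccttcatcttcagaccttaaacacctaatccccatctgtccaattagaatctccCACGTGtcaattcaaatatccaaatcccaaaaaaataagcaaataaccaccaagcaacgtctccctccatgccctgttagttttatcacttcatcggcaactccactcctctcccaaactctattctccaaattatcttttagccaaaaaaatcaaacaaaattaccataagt
GGT1: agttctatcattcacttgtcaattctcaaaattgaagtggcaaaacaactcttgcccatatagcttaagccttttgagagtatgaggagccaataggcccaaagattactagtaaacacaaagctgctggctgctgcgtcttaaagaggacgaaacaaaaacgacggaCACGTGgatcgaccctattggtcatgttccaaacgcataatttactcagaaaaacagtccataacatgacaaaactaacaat
GLDP1: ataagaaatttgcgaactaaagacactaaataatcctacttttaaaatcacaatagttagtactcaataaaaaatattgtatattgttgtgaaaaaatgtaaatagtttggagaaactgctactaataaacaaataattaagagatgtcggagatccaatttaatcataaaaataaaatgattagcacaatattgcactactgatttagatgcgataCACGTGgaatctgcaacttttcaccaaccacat
RBCS2B and HCEF1 carry I-boxes beside the G-box, written GATAAG or, on the other strand, CTTATC. The G-box begins 123 bases before the start of RBCS2B, 22 before HCEF1, 173 before PRK, 82 before GGT1 and 33 before GLDP1. Of these 5 genes, GGT1 is the only one that was not called lower than mock in all 3 treated groups.

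Most of the 35 genes were called lower than mock 6 h after each treatment. Those not called lower, each in at least 1 treated group, were AGT1, GGT1, HPR1 and GLYK of photorespiration and TKL1 and PDTPI of the Calvin cycle. In counts of genes that fell or rose, only called changes are meant. Against mock, limma's moderated test on log2(FPKM + 1) called 30 of the 35 lower and 1 higher with valinomycin, 32 lower and none higher with DC3000, and 32 lower and 1 higher with both treatments, at an adjusted p under 0.05. Over all 18048 genes tested, 13.8% were called lower and 38.5% higher with valinomycin (52.3% in either direction), 17.2% lower and 31.6% higher with DC3000 (48.8%), and 23.1% lower and 37.2% higher with both (60.3%). No gene of the set was higher with DC3000 at an unadjusted p under 0.05 either, where 33 were lower. Of all 18048 genes, 6457 were higher and 3532 lower with DC3000 at that threshold. The median log2 change of the 35 was -0.84 with valinomycin, -0.89 with DC3000 and -1.43 for the combination, beside 0.27, 0.18 and 0.17 for all genes tested. Scaling the libraries by median-of-ratios size factors moved the median of all genes to 0.01, 0.00 and 0.01 and that of the 35 to -1.16, -1.11 and -1.62, with 33, 34 and 34 genes called lower and none higher. The shares of all genes called under that scaling are not given here. The 3 comparisons share the mock libraries, so the same mock values stand behind each. Of the calls, 28 of 31, 29 of 32 and 30 of 33 held under every scaling, filter, pseudocount and left-out library that was tried.

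**Figure D1:**
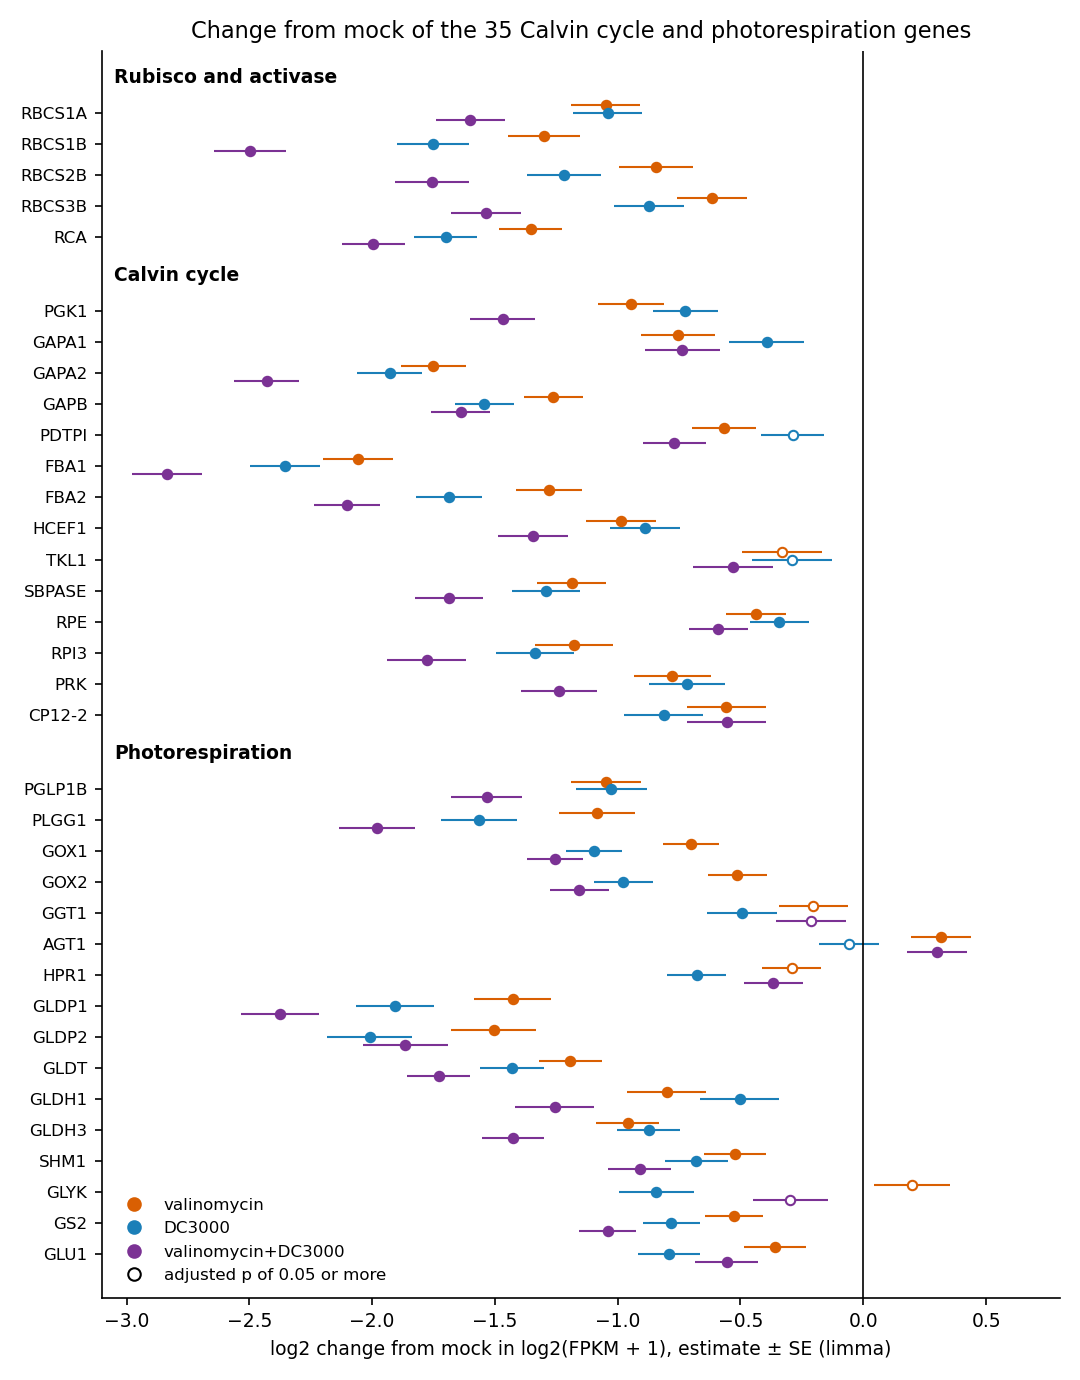
Log2 change against mock, on the log2(FPKM + 1) scale, for each of the 35 genes (rows, grouped by pathway) with valinomycin, DC3000 or both treatments, each a point with its standard error (n = 3 libraries per group) and filled where limma called it. Points lie left of 0 for nearly all genes, from -2.83 for FBA1 with both treatments to 0.32 for AGT1 with valinomycin.

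All 5 Rubisco genes fell in every treated group, and they were lowest where seedlings received both treatments. The small subunit is encoded by RBCS1A (AT1G67090, chromosome 1, 25048158 to 25049667, minus strand) and by 3 genes that lie side by side on chromosome 5, RBCS1B (AT5G38430, 15383167 to 15385320), RBCS2B (AT5G38420, 15380907 to 15382071) and RBCS3B (AT5G38410, 15376988 to 15378642), all on the minus strand. RBCS1A, the most abundant of the 35 genes by FPKM, stood at 9742, 9213 and 8817 FPKM in the mock libraries, 4789, 4034 and 4619 FPKM with valinomycin, 4857, 4860.3 and 3843 FPKM with DC3000 and 3129, 2885 and 3143 FPKM with both treatments. The valinomycin and DC3000 libraries overlapped, while all mock libraries lay above them and all libraries with both treatments below. Its log2 changes against mock were -1.05 ± 0.14 (SE, adjusted p = 3.22e-05) with valinomycin, -1.04 ± 0.14 (3.12e-05) with DC3000 and -1.60 ± 0.14 (3.26e-07) with both.

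RBCS1B fell most among the small subunit genes. Its values were 1905, 1793 and 1765 FPKM in the mock libraries, 671, 652 and 920.4 FPKM with valinomycin, 519, 544 and 556 FPKM with DC3000 and 331, 286 and 350.3 FPKM with both treatments. The 4 groups did not overlap, and they ran from mock through valinomycin and DC3000 to both treatments. The log2 change was -1.30 ± 0.15 with valinomycin, -1.75 ± 0.15 with DC3000 and -2.50 ± 0.15 with both, with adjusted p = 6.09e-06, 2.37e-07 and 5.73e-09. Its share of the summed small subunit FPKM was 11.5 to 11.7% in mock libraries, 8.28 to 10.1% with valinomycin, 6.76 to 8.19% with DC3000 and 6.19 to 6.83% with both, with no treated library as high as a mock library.

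RBCS2B was measured at 1721, 1631 and 1662 FPKM in the mock libraries, 851, 809 and 1168 FPKM with valinomycin, 698, 671 and 787 FPKM with DC3000 and 495, 448 and 545 FPKM with both treatments. RBCS3B was measured at 3074, 2919 and 2889.7 FPKM in the mock libraries, 1796, 1675 and 2389 FPKM with valinomycin, 1599.8, 1652 and 1597 FPKM with DC3000 and 975, 1003 and 1089 FPKM with both treatments. For both genes the groups kept the order of RBCS1B without overlap, although valinomycin replicate 3 stood well above the other valinomycin libraries. The log2 changes of RBCS2B were -0.84 with valinomycin, -1.22 with DC3000 and -1.75 with the combination, and those of RBCS3B were -0.62 with valinomycin, -0.87 with DC3000 and -1.53 with the combination. The coding sequences of RBCS1B and RBCS2B are 97.3% identical, and those of RBCS2B and RBCS3B 94.3%, so the split of reads among the 3 genes depends on the authors' counting and is uncertain. RBCS1A is at most 90.9% identical to any of them.

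Rubisco activase, RCA (AT2G39730, chromosome 2, 16570746 to 16573692, minus strand), uses ATP to free Rubisco's active sites of inhibitory sugar phosphates. It was measured at 3508, 3335 and 3033 FPKM in the mock libraries, 1414, 1133 and 1324 FPKM with valinomycin, 1018, 989.6 and 1024 FPKM with DC3000 and 780.3, 858 and 835 FPKM with both treatments, again with no overlap between groups. Its log2 changes were -1.35 ± 0.13, -1.70 ± 0.13 and -1.99 ± 0.13 with valinomycin, DC3000 and both, with adjusted p = 1.21e-06, 8.77e-08 and 1.41e-08. The summed FPKM of the 5 Rubisco genes came to 49.5% ± 5.59 of the mock mean with valinomycin, 44.2% ± 2.73 with DC3000 and 30.1% ± 1.26 with both (SD, n = 3 in each).

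The large subunit of Rubisco is encoded in the chloroplast by rbcL, which is not among the 35. It stood at 2251, 2353 and 1854 FPKM in the mock libraries, 1513, 1203 and 1376 FPKM with valinomycin, 1642, 1961 and 3290.4 FPKM with DC3000 and 2238, 1582 and 2198 FPKM with both treatments. The mock, DC3000 and combined groups overlapped, and DC3000 replicate 3 was the highest of all libraries. With valinomycin it was called lower, with a log2 change of -0.66 ± 0.23 (adjusted p = 0.0244), but the call was lost without mock replicate 1 (0.0668), mock replicate 2 (0.0766) or valinomycin replicate 2 (0.0895). With DC3000 (0.04, adjusted p = 0.906) and with both (-0.11, adjusted p = 0.689) no difference passed the test. Its SE was 0.23 against 0.14 for RBCS1A.

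**Figure D2:**
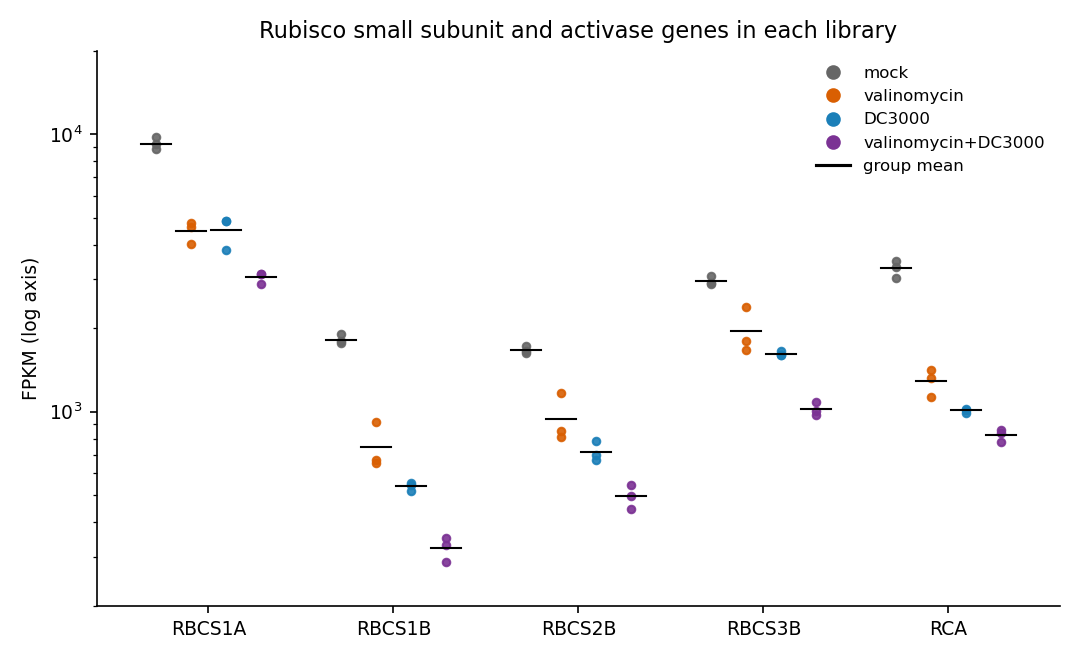
FPKM (log axis) of the 4 small subunit genes and Rubisco activase in each of the 12 libraries (points, coloured by group) with the mean of each group (bars). All 5 genes step down from mock to the treated libraries, RBCS1A from between 8817 and 9742 FPKM in mock libraries to between 2885 and 3143 FPKM with both treatments.

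Of the 14 Calvin cycle genes, 13 fell with valinomycin, 12 with DC3000 and all 14 with both, with median log2 changes of -0.97, -0.85 and -1.41 for valinomycin, DC3000 and the combination. The genes that did not pass were TKL1, a transketolase that moves carbon units between sugars, in both single treatments (-0.33 and -0.29), and PDTPI, the plastid triose phosphate isomerase, with DC3000 (-0.29). The summed FPKM of the 14 genes was 48.8% ± 2.75 of the mock mean with valinomycin, 48.98% ± 3.498 with DC3000 and 38.2% ± 0.647 with both (SD, n = 3). With DC3000, the calls of GAPA1 (adjusted p = 0.0443) and RPE (adjusted p = 0.0289) were lost without any of several libraries, up to adjusted p = 0.174 and 0.106 without DC3000 replicate 3.

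FBA1 (AT2G21330, chromosome 2, 9128122 to 9130619, minus strand), a plastid aldolase that joins triose phosphates, and GAPA2 (AT1G12900, chromosome 1, 4392438 to 4394454, minus strand), an A subunit of the plastid glyceraldehyde-3-phosphate dehydrogenase (GAPDH), fell most of the 14 Calvin cycle genes in each treated group. FBA1 stood at 639, 595 and 654 FPKM in the mock libraries, 187, 129.9 and 139.9 FPKM with valinomycin, 118, 135 and 114 FPKM with DC3000 and 85.4, 86.1 and 90.3 FPKM with both treatments. The valinomycin and DC3000 libraries of FBA1 overlapped, and the libraries with both treatments lay below them. Its log2 changes were -2.06 ± 0.14, -2.35 ± 0.14 and -2.83 ± 0.14, with adjusted p = 6.86e-08, 1.16e-08 and 1.61e-09. GAPA2 stood at 682, 723 and 591 FPKM in the mock libraries, 186, 189.5 and 215 FPKM with valinomycin, 176, 178 and 167 FPKM with DC3000 and 134, 106 and 128 FPKM with both treatments, with no overlap between the 4 groups. Its log2 changes were -1.75 ± 0.13, -1.93 ± 0.13 and -2.43 ± 0.13, with adjusted p = 1.52e-07, 3.76e-08 and 3.34e-09.

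Isoforms of 1 step differed in how far they fell. GAPA1, the other A subunit gene, changed by -0.75 with valinomycin, -0.39 with DC3000 and -0.74 with the combination on the log2 scale, each a smaller fall than that of GAPA2. Its share of the summed FPKM of both A subunit genes was 52.95 to 55.9% in mock libraries, 64.6 to 74.9% with valinomycin, 74.98 to 79.1% with DC3000 and 78.5 to 80.7% with both. GAPB, the regulatory B subunit of the same enzyme, fell by log2 changes of -1.26 with valinomycin, -1.54 with DC3000 and -1.64 with the combination. FBA2, the other plastid aldolase among the 35, changed by -1.28 with valinomycin, -1.69 with DC3000 and -2.10 with the combination. The share of FBA1 in the summed FPKM of the pair went from 40.4 to 41.8% in mock libraries to 27.2 to 30.6%, 28.7 to 31.4% and 28.9 to 30.3%. The shares of mock and treated libraries did not overlap for either pair, and the coding sequences of GAPA1 and GAPA2 are 85.6% identical.

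The enzymes that rebuild the carbon acceptor also fell. SBPASE, sedoheptulose-bisphosphatase, had log2 changes of -1.19 with valinomycin, -1.29 with DC3000 and -1.69 with the combination, and HCEF1, the plastid fructose-1,6-bisphosphatase, -0.99 with valinomycin, -0.89 with DC3000 and -1.35 with the combination. RPI3, a ribose-phosphate isomerase, changed by -1.18 with valinomycin, -1.34 with DC3000 and -1.78 with the combination, and RPE, ribulose-phosphate epimerase, by -0.44 with valinomycin, -0.34 with DC3000 and -0.59 with the combination. PRK, phosphoribulokinase, which makes ribulose-1,5-bisphosphate, changed by -0.78 with valinomycin, -0.72 with DC3000 and -1.24 with the combination. PGK1, phosphoglycerate kinase, which opens the reduction steps, changed by -0.95 with valinomycin, -0.73 with DC3000 and -1.47 with the combination. CP12-2, which holds GAPDH and phosphoribulokinase in an inactive complex in the dark, changed by -0.56 with valinomycin, -0.81 with DC3000 and -0.56 with the combination. Exons of RPI3 overlap a gene on the opposite strand over 235 bases, HCEF1 over 125, GLU1 over 79, and the other 6 such members over 3 to 33, and since no source says whether strand was used, reads there cannot be assigned with certainty.

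In photorespiration, all 6 mitochondrial genes fell in every treated group, with median log2 changes of -1.08, -1.15 and -1.58 for valinomycin, DC3000 and both. Of the 5 plastid genes, 4, 5 and 4 fell, and of the 5 peroxisome genes, 2, 4 and 3. In sum, 12 of the 16 fell and 1 rose with valinomycin, 15 fell with DC3000, and 13 fell and 1 rose with both. Summed FPKM of the peroxisome genes was 84.7% ± 5.35, 66.1% ± 1.29 and 76.1% ± 1.46 of the mock mean in that order, against 50.7% ± 3.05, 47.3% ± 0.763 and 35.9% ± 1.36 for the mitochondrial genes (SD, n = 3).

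The plastid starts the route with phosphoglycolate phosphatase and exports glycolate. PGLP1B, a phosphatase gene whose coding sequence is identical to that of PGLP1A (100%), had log2 changes of -1.05 with valinomycin, -1.03 with DC3000 and -1.53 with the combination, and how reads were divided between the copies is not known. PLGG1 (AT1G32080, chromosome 1, 11537242 to 11539896, minus strand) carries glycolate out of the plastid and glycerate back in, and it stood at 37.8, 36.2 and 32.03 FPKM in the mock libraries, 14.9, 13.9 and 20.1 FPKM with valinomycin, 10.3, 12.7 and 11.01 FPKM with DC3000 and 8.91, 7.45 and 8.25 FPKM with both treatments. Its groups did not overlap. The log2 changes were -1.08 ± 0.16, -1.56 ± 0.16 and -1.98 ± 0.16, with adjusted p = 5.41e-05, 1.36e-06 and 9.72e-08. GS2, the plastid glutamine synthetase, and GLU1, the ferredoxin-dependent glutamate synthase, which together recapture the ammonia, changed by -0.53 with valinomycin, -0.78 with DC3000 and -1.04 with the combination for GS2 and by -0.36 with valinomycin, -0.79 with DC3000 and -0.56 with the combination for GLU1. The valinomycin call of GLU1 was lost without mock replicate 1 (adjusted p = 0.0967), mock replicate 2 (0.0654) or valinomycin replicate 2 (0.103).

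GLYK (AT1G80380, chromosome 1, 30217116 to 30220595, plus strand), the glycerate kinase that closes the route in the plastid, was called lower than mock only in the DC3000 group. It was measured at 64.4, 61.4 and 47.4 FPKM in the mock libraries, 76.1, 69.2 and 54.3 FPKM with valinomycin, 31.6, 29.8 and 33.2 FPKM with DC3000 and 44.9, 49.7 and 44.9 FPKM with both treatments. The DC3000 libraries were the lowest, below every other library, while the mock libraries overlapped those of valinomycin and those of both treatments. It fell with DC3000 (log2 change -0.84 ± 0.15, adjusted p = 0.000405), and the changes with valinomycin (0.20, adjusted p = 0.29) and with both (-0.30, adjusted p = 0.108) did not pass.

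In the peroxisome, glycolate oxidase makes glyoxylate and hydrogen peroxide. Its genes GOX2 (chromosome 3, 4818251 to 4821013) and GOX1 (4821391 to 4824178) are neighbours on the plus strand and are 90.9% identical in coding sequence. GOX1 changed by -0.70 with valinomycin, -1.10 with DC3000 and -1.25 with the combination on the log2 scale and GOX2 by -0.51 with valinomycin, -0.98 with DC3000 and -1.16 with the combination, all called lower. GGT1, which forms glycine from glyoxylate and glutamate, fell with DC3000 (-0.49, adjusted p = 0.0099), and its changes with valinomycin (-0.20, adjusted p = 0.242) and both (-0.21, adjusted p = 0.208) did not pass. HPR1, hydroxypyruvate reductase, fell with DC3000 (-0.68) and with both (-0.37, adjusted p = 0.0165), and its valinomycin change of -0.29 did not pass (adjusted p = 0.0552). The HPR1 call with both was lost without mock replicate 1 (0.0736) or without replicate 1 (0.0568) or 2 (0.0613) of both treatments.

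AGT1 (AT2G13360, chromosome 2, 5538740 to 5541479, minus strand), the serine:glyoxylate aminotransferase, was the only one of the 35 genes called higher than mock. It stood at 376, 364 and 356 FPKM in the mock libraries, 466, 472 and 428 FPKM with valinomycin, 340.0, 319 and 397 FPKM with DC3000 and 429, 456 and 467 FPKM with both treatments. The valinomycin libraries and the libraries with both treatments lay above the mock libraries, and the DC3000 libraries spanned them. Its log2 change was 0.32 ± 0.12 (adjusted p = 0.0415) with valinomycin, -0.06 (0.719) with DC3000 and 0.30 ± 0.12 (0.0448) with the combination. Its rise with valinomycin is close to the median of all genes, 0.27, and with median-of-ratios size factors the changes were 0.00 (adjusted p = 0.996) and 0.11 (adjusted p = 0.539), so its call as higher ended there, as it did in most fits without a library (adjusted p up to 0.122 for valinomycin, without its replicate 2, and up to 0.125 for both treatments, without their replicate 3).

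The 5 genes among the 35 for glycine decarboxylase, the mitochondrial complex that releases carbon dioxide and ammonia, fell in every treated group. Its P protein, which binds glycine and takes off the carbon dioxide, is encoded by GLDP1 (AT4G33010, chromosome 4, 15926652 to 15931422, minus strand) and GLDP2 (AT2G26080, chromosome 2, 11109003 to 11114291, minus strand). GLDP1 stood at 215, 164 and 145 FPKM in the mock libraries, 55.7, 59.6 and 76.8 FPKM with valinomycin, 43.9, 47.3 and 44.4 FPKM with DC3000 and 32.1, 31.4 and 33.7 FPKM with both treatments. Its 4 groups did not overlap, and its log2 changes were -1.43 ± 0.16, -1.91 ± 0.16 and -2.38 ± 0.16, with adjusted p = 5.25e-06, 2.26e-07 and 1.95e-08. GLDP2 stood at 111, 90.4 and 85.7 FPKM in the mock libraries, 43.99, 30.98 and 26.1 FPKM with valinomycin, 24.5, 23.5 and 20.9 FPKM with DC3000 and 25.6, 26.3 and 24.4 FPKM with both treatments. Here the libraries with both treatments overlapped those of each single treatment, so that GLDP2, unlike GLDP1, was not lowest with both. Its log2 changes were -1.51 ± 0.17, -2.01 ± 0.17 and -1.86 ± 0.17, with adjusted p = 7.34e-06, 3.18e-07 and 5e-07. Its share of the summed P protein FPKM was 34.2 to 37.1% in mock libraries, 25.3 to 44.1% with valinomycin, 32.02 to 35.8% with DC3000 and 41.97 to 45.6% with both.

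The T protein gene GLDT, whose product releases the ammonia, changed by -1.19 with valinomycin, -1.43 with DC3000 and -1.73 with the combination. The H protein, which carries the reaction's intermediate between the other subunits, is encoded by GLDH1 and GLDH3 among the 35, and these changed by -0.80 with valinomycin, -0.50 with DC3000 and -1.26 with the combination and by -0.96 with valinomycin, -0.87 with DC3000 and -1.43 with the combination. The GLDH1 call with DC3000 was lost without mock replicate 2 (adjusted p = 0.0788) or DC3000 replicate 3 (0.0574). SHM1, the serine hydroxymethyltransferase that joins the freed carbon unit to another glycine, changed by -0.52 with valinomycin, -0.68 with DC3000 and -0.91 with the combination. Together the 5 glycine decarboxylase genes came to 45.7% ± 4.22, 43.2% ± 1.97 and 31.2% ± 1.73 of their mock mean (SD, n = 3), close to the values of the Rubisco genes. Outside the 35, lipoamide dehydrogenase, the L protein of the complex, is encoded by mLPD1 and mLPD2, which did not move alike. The mean of mLPD2 was 162%, 136% and 187% of mock with valinomycin, DC3000 and both, and that of mLPD1 78.6%, 77.1% and 70.1%. GLDH2, another H protein gene, stood at 73.2%, 92.6% and 59.5%.

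**Figure D3:**
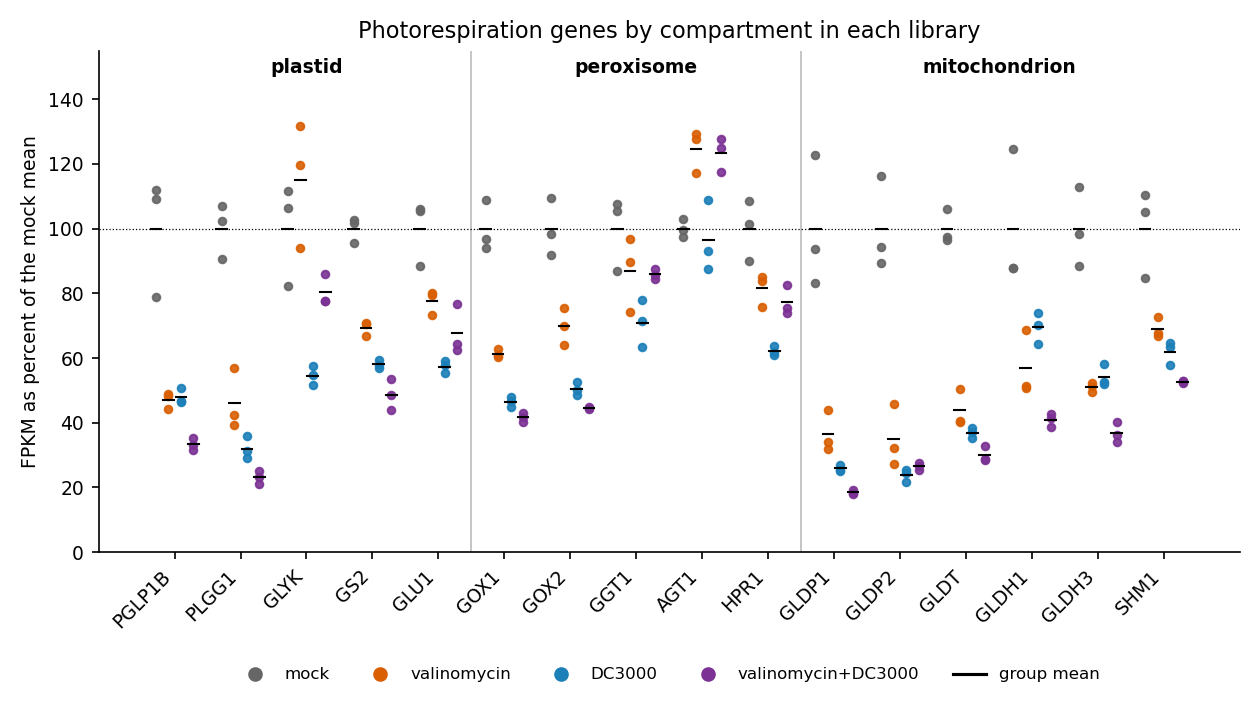
FPKM of the 16 photorespiration genes as a percentage of each gene's mock mean, by compartment, in each of the 12 libraries (points, coloured by group) with group means (bars) and the mock mean as a dotted line. GLDP1 and PLGG1 step down through all 4 groups, GLYK is lowest in the DC3000 libraries, and AGT1 lies above mock with valinomycin and with both treatments.

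The summed FPKM of photorespiration genes, relative to that of Calvin cycle genes, was higher in every treated library than in any mock library. The peroxisome genes were the largest part of the photorespiration sum in mock libraries. Among them, GGT1 and AGT1 averaged 733 and 365 FPKM in mock libraries, beside 4394 FPKM for the sum of the 16 genes. With DC3000 these 2 genes stood at 70.9% and 96.5% of their mock means, above the 58.01% of that sum. Whether the ratio rises with DC3000 without them was not tested, and the median changes of the pathways with DC3000 were nearly equal. The median log2 changes of the 16 photorespiration genes were -0.61 with valinomycin, -0.86 with DC3000 and -1.20 with the combination, beside -0.97, -0.85 and -1.41 for the 14 Calvin cycle genes. The summed mitochondrial genes, at 50.7%, 47.3% and 35.9% of the mock mean, stood near the Calvin cycle sum, at 48.8%, 48.98% and 38.2%. The summed FPKM of the 16 photorespiration genes divided by that of the 14 Calvin cycle genes is a ratio within a library, which no scaling of whole libraries changes. It was 0.736, 0.726 and 0.684 in the mock libraries, 1.05, 1.11 and 0.973 with valinomycin, 0.796, 0.840 and 0.917 with DC3000, and 1.07, 1.12 and 1.097 with both. The DC3000 libraries lay between mock and the other treated groups, and the libraries with valinomycin overlapped those with both. The means were 0.715 ± 0.0271, 1.04 ± 0.0678, 0.851 ± 0.0613 and 1.09 ± 0.0235 (SD, n = 3). A two-sided exact permutation test gave p = 0.1, the smallest that 3 against 3 libraries allow, for each of 6 pairs of groups except both treatments against valinomycin, where p = 0.3, and the values adjusted over the 6 pairs were 0.12 and 0.3. This exact test of 3 against 3 libraries therefore cannot pass a threshold of 0.05. As summed FPKM, photorespiration stood at 71.1% ± 2.01 of the mock mean with valinomycin, 58.01% ± 0.4296 with DC3000 and 58.3% ± 1.16 with both (SD, n = 3). Of the photorespiration sum, the peroxisome genes held 1939.9 to 2246 FPKM of 4033 to 4596 FPKM in mock libraries.

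**Figure D4:**
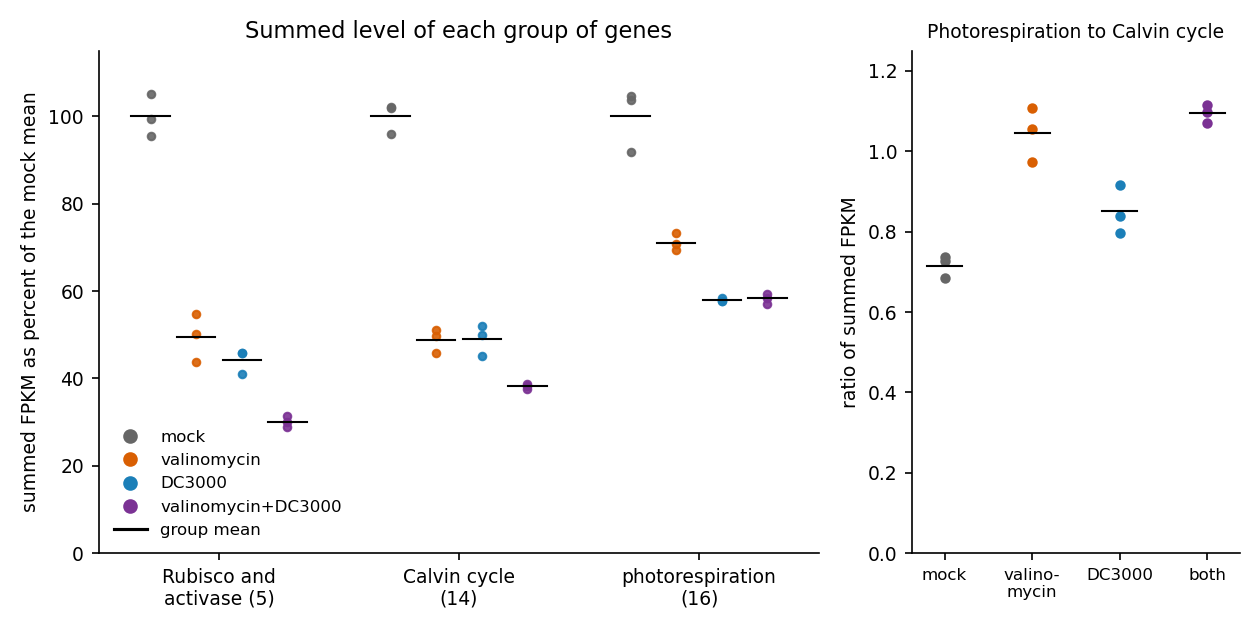
Left, summed FPKM of the 5 Rubisco, 14 Calvin cycle and 16 photorespiration genes as a percentage of the mock mean, for each library (points, coloured by group) with group means (bars). Right, the ratio of summed photorespiration to summed Calvin cycle FPKM in each library, from 0.684 to 0.736 in mock libraries to 1.07 to 1.12 with both treatments.

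Adding valinomycin to DC3000 lowered part of the set further. With both treatments against DC3000 alone, 16 of the 35 were called lower and 2 higher, against 13.5% lower, 14.1% higher and 27.6% in either direction over all genes tested, and the median log2 change was -0.39 beside -0.06 for all genes. The called genes comprised 4 of 5 Rubisco genes and 8 of 14 Calvin cycle genes, all lower, and 4 photorespiration genes lower and 2 higher. The largest falls were those of RBCS1B (-0.75 ± 0.15, adjusted p = 0.0021), GLDH1 (-0.75 ± 0.16, 0.00371) and PGK1 (-0.74 ± 0.13, 0.00115). PGK1 stood at 271, 249 and 265 FPKM with DC3000 and at 147, 159 and 162 FPKM with both, and GLDH1 at 127, 120.0 and 110.4 and 73.3, 66.1 and 71.1 FPKM, with no overlap for either gene. The genes that were higher were GLYK (0.55 ± 0.15, 0.0171) and AGT1 (0.36 ± 0.12, 0.0412). This count depended on single libraries and on the scaling: of the 18 calls in the main test, the total was 9 without DC3000 replicate 1, 7 without DC3000 replicate 2, 10 without replicate 1 of both treatments and 7 without replicate 2 of both, and 6, with 4 lower and 2 higher, when all libraries were scaled to a common total. Of the 18 calls, 4 held under every alternative.

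Adding DC3000 to valinomycin lowered 21 of the 35 and raised none, against 10.4% lower, 4.72% higher and 15.1% in either direction over all genes tested, with a median of -0.50 beside -0.12. At an unadjusted p under 0.05, 25 were lower and none higher, against 3856 lower and 1489 higher of all 18048 genes tested. All 5 Rubisco genes, 7 Calvin cycle genes and 9 photorespiration genes made up the 21, and the largest falls were those of RBCS1B (-1.20 ± 0.15, adjusted p = 9.87e-05), GLDP1 (-0.95 ± 0.16, 0.00133) and RBCS3B (-0.92 ± 0.14, 0.000816). GLYK fell too (-0.50, 0.0425), while AGT1 (-0.02), GGT1 (-0.01) and HPR1 (-0.08) of the peroxisome did not pass. Without replicate 1 of both treatments the count was 11, and without replicate 2 it was 14. With all libraries scaled to a common total it was 11, and 11 of the 21 calls held under every alternative.

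Valinomycin and DC3000, each given alone, differed in 11 of the 35, all higher with valinomycin, against 17.9% higher, 8.18% lower and 26.1% in either direction over all genes tested. Of these, 9 were photorespiration genes, 4 of them in the peroxisome, 3 in the plastid and 2 in the mitochondrion, and the others were RBCS1B and FBA2. The largest differences were those of GLYK (1.04 ± 0.15, adjusted p = 0.000126), GLDP2 (0.50 ± 0.17, 0.0436) and PLGG1 (0.48 ± 0.16, 0.0331). At an unadjusted p under 0.05, 15 were higher and 2 lower, against 4328 higher and 2228 lower of all 18048 genes tested. With median-of-ratios size factors 4 of the 35 were higher and 2 lower. The count was 3, 4 and 5 without DC3000 replicates 1, 2 and 3, 6, 7 and 7 without valinomycin replicates 1, 2 and 3, and 7 without replicate 1 of both treatments, and only 2 of the 11 calls held under every alternative.

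The combined treatment lowered many of these genes by less than the sum of the single log2 changes. The interaction, which is the change from DC3000 to both treatments minus the change from mock to valinomycin, was positive and called for 15 of the 35 and negative and called for none, against 5.25% positive, 19.4% negative and 24.7% in either direction over all genes tested. At an unadjusted p under 0.05, 21 were positive and none negative, against 1468 positive and 5448 negative of all 18048 genes tested. The median interaction was 0.53 for the 35 and -0.29 for all genes, and with median-of-ratios size factors the latter was -0.00 and 28 of the 35 were called positive. The shares of all genes above come from the main test, and those under this scaling are not given here. The largest interactions were those of GLDP2 (1.65 ± 0.24, adjusted p = 0.000298), FBA1 (1.58 ± 0.20, 9.12e-05) and GAPA2 (1.25 ± 0.19, 0.000354). FBA1 fell by a log2 change of -2.06 when valinomycin was given alone but by -0.48 when it was added to DC3000. The 15 comprised RCA, 7 Calvin cycle genes and 7 photorespiration genes. None of the 4 small subunit genes was called, with values of 0.49 for RBCS1A, 0.55 for RBCS1B, 0.31 for RBCS2B and -0.05 for RBCS3B. Without mock replicate 1 the count was 10.

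Genes around the 35 were counted from lists of their partners, to be read against the shares of all genes tested, which were 13.8% lower and 38.5% higher with valinomycin, 17.2% and 31.6% with DC3000, and 23.1% and 37.2% with both. Of 10 isoforms and partners of the Calvin cycle outside the 35, 3 fell and 3 rose with valinomycin, 2 fell and 3 rose with DC3000, and 4 fell and 3 rose with both, so the share that rose was near that of all genes in each group. CP12-3, an isoform of the CP12 assembly protein, rose by 1.93 with valinomycin, 1.84 with DC3000 and 2.43 with the combination on the log2 scale, while CP12-2 of the 35 fell. CP12-1, the most abundant of the 10 in mock libraries with a mean of 768 FPKM, stood at 94.6%, 117% and 102% of it. RPI1, another ribose-phosphate isomerase, rose by 0.97 with valinomycin, 1.52 with DC3000 and 1.57 with the combination, and RPI2 fell with changes of -0.74 with valinomycin, -0.88 with DC3000 and -1.18 with the combination. With median-of-ratios size factors the counts were 5 and 3, 3 and 3, and 6 and 3 in the same order, and with all libraries scaled to a common total 1 and 3, 2 and 3, and 2 and 3.

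Of 11 genes for the assembly and upkeep of Rubisco, 7 fell and 3 rose with valinomycin, 8 fell and 1 rose with DC3000, and 8 fell and 2 rose with both. BSD2, a late assembly chaperone, changed by -1.35 with valinomycin, -1.18 with DC3000 and -1.86 with the combination, and CPN60B1, a subunit of the chloroplast chaperonin that folds the large subunit, by -1.53 with valinomycin, -1.20 with DC3000 and -1.63 with the combination. RBCX1, another assembly chaperone, rose by 3.69 with valinomycin, 3.67 with DC3000 and 3.22 with the combination. Under median-of-ratios scaling 8 fell and 1 rose with valinomycin.

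Most of the other photorespiration genes that were called fell as well. Of 17 listed, 15 passed the filter, and of these 9 fell and 3 rose with valinomycin, 7 fell and 2 rose with DC3000, and 11 fell and 2 rose with both. CAT2, the leaf catalase that removes the hydrogen peroxide made by glycolate oxidase, changed by -1.32 with valinomycin, -1.81 with DC3000 and -1.92 with the combination. BOU, a mitochondrial carrier needed for glycine decarboxylase activity, changed by -1.13 with valinomycin, -1.04 with DC3000 and -1.23 with the combination, and PGLP1A by -1.12 with valinomycin, -1.09 with DC3000 and -1.64 with the combination. With median-of-ratios size factors the counts were 11 and 0, 9 and 1, and 12 and 2, and with nuclear genes scaled to a common total 8 and 1 with DC3000.

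Cytosolic counterparts of the plastid enzymes rose more often than they fell after valinomycin. Of 14 such genes, which serve glycolysis, sucrose synthesis and nitrogen remobilisation, 9 rose and 1 fell with valinomycin and 9 rose and 3 fell with both, while 5 rose and 4 fell with DC3000. Over all genes tested, 38.5%, 37.2% and 31.6% were called higher in the same order, and the 5 of 14 with DC3000 are near that share. With median-of-ratios size factors, 9 rose and 3 fell, 9 rose and 4 fell, and 5 rose and 5 fell in the same order. GLN1;1, a cytosolic glutamine synthetase, stood at 3.61, 3.198 and 3.31 FPKM in the mock libraries, 98.3, 125 and 64.5 FPKM with valinomycin, 24.1, 25.6 and 35.1 FPKM with DC3000 and 82.7, 104 and 80.4 FPKM with both treatments. All treated libraries lay above the mock libraries, and the DC3000 libraries lay below those with valinomycin. Its log2 changes were 4.42 with valinomycin, 2.73 with DC3000 and 4.36 with the combination, opposite to those of GS2, its plastid counterpart. The cytosolic aldolases FBA6 and FBA5 rose by 2.58 with valinomycin, 0.89 with DC3000 and 2.53 with the combination and by 2.48 with valinomycin, 1.73 with DC3000 and 1.25 with the combination. GAPC1, a cytosolic GAPDH, rose with valinomycin (1.49) and both (1.43), and its DC3000 change of -0.62 was called lower (adjusted p = 0.0321), a call lost without mock replicate 1 or 2 or any DC3000 library (adjusted p up to 0.112). Summed FPKM of the 14 was 156% ± 19.5 of the mock mean with valinomycin, 81.5% ± 2.37 with DC3000 and 133% ± 16.4 with both (SD, n = 3).

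**Figure D5:**
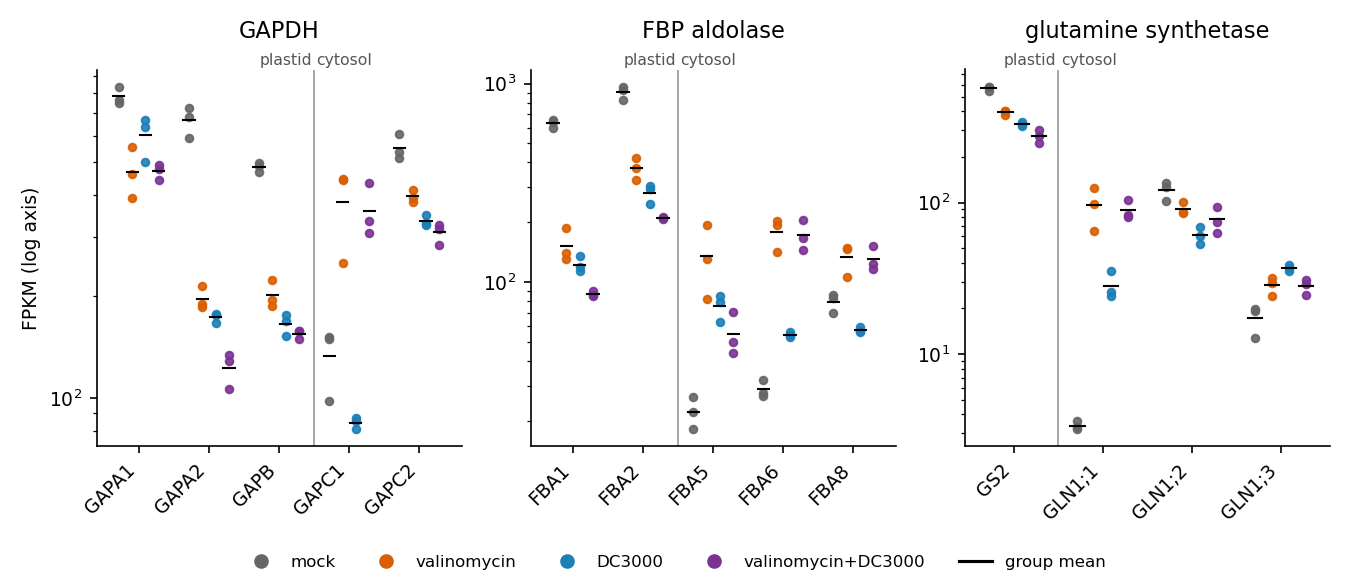
FPKM (log axis, its range set for each panel) of plastid (left of the grey line) and cytosolic (right) genes for GAPDH, fructose-bisphosphate aldolase and glutamine synthetase in each of the 12 libraries (points) with group means (bars). Plastid genes are lower in treated libraries, as are the cytosolic GAPC2 and GLN1;2, and GLN1;1, FBA5 and FBA6 are higher than mock in all treated libraries.

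Thioredoxins, which switch Calvin cycle enzymes on in the light, and light-harvesting proteins, which feed the photosystems, were counted for comparison. Of 10 genes of the thioredoxin system, 1 fell and 3 rose with valinomycin, 3 fell and 4 rose with DC3000, and 5 fell and 1 rose with both, and 8 fell and none rose between DC3000 and both treatments. The counts with valinomycin are near the shares of all genes, 13.8% lower and 38.5% higher, and the 4 that rose with DC3000 are not far from 31.6%, while 13.5% of all genes were lower between DC3000 and both treatments. With median-of-ratios size factors the first 3 pairs of counts were 5 and 1, 4 and 3, and 7 and 0, and with nuclear genes scaled to a common total 2 and 3 with valinomycin. NTRC, a plastid reductase with its own thioredoxin domain, changed by -1.04 with valinomycin, -1.13 with DC3000 and -1.40 with the combination. Of the 17 light-harvesting genes, 8 fell and 1 rose with valinomycin, 7 fell and 1 rose with DC3000, and 13 fell and none rose with both. Under median-of-ratios scaling these counts were 10 and 0, 11 and 0, and 16 and 0. LHCB2.3 fell most, by -2.18 with valinomycin, -2.34 with DC3000 and -3.52 with the combination. Their summed FPKM was 80.8% ± 5.86, 81.97% ± 3.54 and 55.9% ± 5.18 of the mock mean, so in the single treatments it stayed nearer to mock than that of Rubisco or the Calvin cycle.

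Regulators of photosynthesis genes moved in the same libraries. LHY, a morning factor of the circadian clock, stood at 303, 291 and 206 FPKM in the mock libraries, 17.3, 6.36 and 3.704 FPKM with valinomycin, 0.923, 0.8804 and 2.11 FPKM with DC3000 and 2.53, 4.0001 and 1.98 FPKM with both treatments. Its log2 changes were -4.94 with valinomycin, -6.88 with DC3000 and -6.14 with the combination, those of CCA1, its close relative, were -3.13 with valinomycin, -5.25 with DC3000 and -4.05 with the combination, and GI, an evening gene of the clock, changed by 4.09 with valinomycin, 3.79 with DC3000 and 3.75 with the combination. HY5, a light-signalling factor, changed by -1.33 with valinomycin, -1.38 with DC3000 and -1.36 with the combination. GLK2, an activator of chloroplast genes, changed by -0.46 with valinomycin, -1.10 with DC3000 and -1.21 with the combination, and GLK1, its paralogue, by 0.03 with valinomycin, -0.00 with DC3000 and -0.37 with the combination, none of the GLK1 values being called. The valinomycin call of GLK2 (adjusted p = 0.0243) was lost with all libraries scaled to a common total and without mock replicate 1 or 2 or valinomycin replicate 1. The part of the clock, of light signalling and of harvest time in the changes of the 35 genes was not tested.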

How the data were processed

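Per the labels' protocols, RNA was purified with RNeasy Plant Mini columns (QIAGEN) and sequenced from CORALL total RNA-seq libraries (Lexogen). TAIR10 is the build that the submitters' processing notes name. Not given in the sources used here are the aligner, the counting and the use of strand. Deposited values carry no stated unit, and from their form they were taken as FPKM normalized by the authors, so the depth per library is unknown. Each of the 12 libraries, 3 per group, had 1 column, and none held a value of 0.

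FPKM were analysed as log2(FPKM + 1) after a filter for a mean of at least 1 over the 12 libraries, which left 18048 of 20233 genes. One limma fit (version 3.58.1, R 4.3.3, trended prior, 8 residual degrees of freedom) held the 4 group means, and Benjamini-Hochberg adjustment ran over all genes tested, with a threshold of 0.05. Fold changes on this scale understate those of low genes. The script was tested on simulated data, separately for each comparison of 2 groups. It called 63 to 79% of simulated log2 changes of 1 and 96 to 99% of those of 2, with 3 to 13 false calls. Smaller changes were not simulated, so a change that did not pass may still be present. The ratio of summed FPKM was tested by two-sided exact permutation. Python 3.11.15 and pandas 2.3.3 made the summaries, and blastn 2.17.0 compared coding sequences, which, like coordinates and promoters, come from RefSeq's TAIR10.1 assembly. The motifs were searched in 250 bases before each annotated start.

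Members and lists were chosen with earlier results of these data known. All 35 genes were counted. Values per library were given for the Rubisco genes, the 2 Calvin cycle and 2 photorespiration genes that fell most against mock, any called higher, and a few chosen after their values were seen (GLYK, GLDH1, PGK1, rbcL, GLN1;1, LHY). Between treated groups and for the interaction the 3 called genes with the largest change each way were named, in the related lists up to 3, and the regulators whole. Alternatives were other scalings, pseudocounts of 0.1 and 5, no filter or a mean of at least 5, no trend, the replicate number as a block, and each library left out in turn.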

Additional observations from a re-analysis of the deposited data

Results flagged for a closer look

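For 15 of the 35 genes the effect of valinomycin differed between seedlings with and without DC3000, by limma's test of the interaction across all genes. Each value is the log2 change from DC3000 to both treatments minus the log2 change from mock to valinomycin. In the Calvin cycle and Rubisco it was 1.58 for FBA1, 1.25 for GAPA2, 1.17 for GAPB, 1.06 for RCA, 0.86 for FBA2, 0.81 for CP12-2, 0.79 for SBPASE and 0.74 for RPI3. In photorespiration it was 1.65 for GLDP2, 0.96 for GLDP1, 0.90 for GLDT, 0.67 for PLGG1, 0.60 for HPR1, 0.59 for GLU1 and 0.55 for GOX1. All 15 were positive, and 9 of these calls held under every alternative tried. Over all genes tested, 5.25% had a positive and 19.4% a negative interaction that passed. Among the related lists, 5 of 11 Rubisco assembly genes were called positive and 2 negative. For the other photorespiration genes it was 4 and 1 of 15, and for the regulators 3 and 1 of 6. Mostly negative were the light-harvesting genes (1 positive and 4 negative of 17), the thioredoxin system (1 and 5 of 10), the cytosolic counterparts (1 and 5 of 14) and the other Calvin cycle genes (0 and 2 of 10). The 15 genes had fallen with each single treatment, apart from HPR1 with valinomycin, so their levels with both treatments were higher than the sum of the single log2 changes gives. The clock genes had interactions of 5.68 for LHY, 4.32 for CCA1 and -4.13 for GI, and their part in these values was not tested.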

How the results depend on the processing

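Calls against mock changed little: leaving out single libraries gave 29 to 32 genes called lower with valinomycin, 29 to 32 with DC3000 and 30 to 33 with both, and the other settings 28 to 34. Comparisons between treated groups moved more. For both treatments against DC3000 the 18 calls became 11 with nuclear genes scaled to a common total and 6 with all genes so scaled, and 7 to 21 with a library left out. For both against valinomycin the 21 became 11 with all genes scaled to a common total and 11 to 23 with a library left out. For valinomycin against DC3000 the 11 became 6 with median-of-ratios size factors and 3 to 12 with a library left out. The interaction's 15 became 28 with median-of-ratios size factors, and 10 to 17 with a library left out. Shares of all genes under these settings are not given here. The cause of these moves was not tested. No called change reversed its sign. Of 43 named results, 6 lost their call in at least 1 fit without a library, 4 with median-of-ratios size factors, 4 without the trend, 2 with nuclear genes scaled, and none under the other settings. Whether the shared replicate numbers pair the libraries is not known. Correlations between same-numbered libraries, in their deviations from group means, ran from -0.242 to 0.439. With 3 libraries per group they cannot settle it. With the replicate number as a block the counts lower and higher were 30 and 1, 32 and 0, and 32 and 1 against mock for valinomycin, DC3000 and both, 16 and 2 for both against DC3000, 21 and 0 for both against valinomycin, 0 and 12 for valinomycin against DC3000 and 0 and 15 for the interaction, and no named call changed. Without depth, the precision of low values is unknown.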
